A study of Mus musculus with 2 samples.

Results

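Ionotropic and metabotropic glutamate receptors and the auxiliary subunits of AMPA receptors were followed through the nuclei of the mouse brain after whole-brain irradiation. The set was chosen by gene symbol alone: Gria1 to Gria4, Grik1 to Grik5, the Grin1, Grin2 and Grin3 genes, Grid1, Grm2 to Grm8 and Cacng2 to Cacng8, which are 31 of the 27998 genes in the count matrices. The data were single-nucleus RNA-seq counts from 2 libraries. ShamRT-28d, labelled untreated, and WBRT-28d, harvested 28 days after whole-brain radiotherapy of 10 Gy given as 5 fractions of 2 Gy, each held nuclei from the frozen whole brains of 2 pooled C57BL/6 mice. The mice were female and the sham group was mock-irradiated, according to the methods of the study. With 1 library per condition and no way to tell the pooled mice apart, no difference between conditions could be tested, and all 95% intervals given here cover counting error only.

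Glutamate is the main excitatory transmitter of the brain. AMPA receptors are tetramers of the Gria subunits and carry fast excitatory current, and the edited Gria2 subunit keeps calcium out. NMDA receptors pair the obligatory Grin1 subunit with Grin2 or Grin3 subunits and admit calcium, kainate receptors are built from Grik subunits, and the delta receptor Grid1 acts as a synaptic organiser that binds cerebellins. The metabotropic receptors signal through G proteins: group I, to which Grm5 belongs, acts through phospholipase C, and group II (Grm2, Grm3) and group III (Grm4, Grm6, Grm7, Grm8) lower cyclic AMP. Transmembrane AMPA receptor regulatory proteins, or TARPs (Cacng2, Cacng3, Cacng4, Cacng5, Cacng7, Cacng8), traffic AMPA receptors and tune their gating, whereas Cacng6 is a calcium channel subunit of the same family.

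ShamRT-28d held 45511469 unique molecular identifiers (UMIs, each counting 1 captured RNA molecule) in 11469 barcodes, and WBRT-28d held 68423922 in 15986, with medians of 2291 and 2565 per barcode. After removal of barcodes with under 500 genes, over 5% mitochondrial UMIs or the highest doublet scores, 10024 and 13664 nuclei remained. The libraries shared 43 barcode sequences. Classes were rebuilt by clustering without the receptor and TARP genes and named from marker lists, so that a class may differ from that of the study. Comparisons were made in the 21 classes that had 50 or more nuclei in both libraries, 12 of neurons and 9 of other cells, and 25.0% and 23.7% of nuclei lay in clusters left unnamed. Levels are given as UMIs of the gene per 1000000 UMIs of a class in a library (CPM), and levels of different genes are compared only per kb of gene span, because nuclear reads come largely from introns. Neuronal RNA counted in nuclei of other cells, called free RNA here, differed between the libraries. The level of 8 neuronal genes in microglia, which should lack them, was 11.6% of that in the whole ShamRT-28d library and 25.8% of that in WBRT-28d. Whether it came from RNA floating in the droplets or from doublets left in was not tested. Scrublet's automatic threshold called 807 doublets in ShamRT-28d and 3287 in WBRT-28d, against 1013 and 2004 removed.

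The 31 genes held 528082 UMIs in ShamRT-28d and 709739 in WBRT-28d, or 1.35% and 1.33% of all UMIs. Of these genes, 30 had UMIs in both libraries, and 27 reached 100 UMIs over both libraries in at least 1 class. The others were Grin3b with 27 and 29 UMIs, Grm6 with 0 and 2, Cacng5 with 378 and 485, and Cacng6 with 10 and 20. The 0 UMIs of Grm6, the receptor of retinal bipolar cells, still allow a level of up to 3 UMIs in the ShamRT-28d library. By family, AMPA subunits summed to 3855 CPM in ShamRT-28d and 3484 in WBRT-28d and NMDA subunits to 2792 and 2564 CPM. Grm2 to Grm8 summed to 4489 and 4512 CPM, Cacng2 to Cacng8 to 369.8 and 422 CPM, and kainate subunits to 1635 and 1812 CPM, while Grid1 stood at 386 and 482 CPM. The sums cannot be ranked against each other, since a gene's UMIs followed its span with a Spearman correlation of 0.829 across the 31 genes, whose median span was 128 kb. Per kb of span, Gria2 (chromosome 3, 80681450 to 80802835 in GRCm38) had the highest level, 11.8 CPM per kb in ShamRT-28d and 9.77 in WBRT-28d. Grin1, a short gene, followed with 11.4 and 9.59 CPM per kb, and no other gene of the set was above 3.11 in ShamRT-28d, the value of Grm3.

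**Figure D1:**
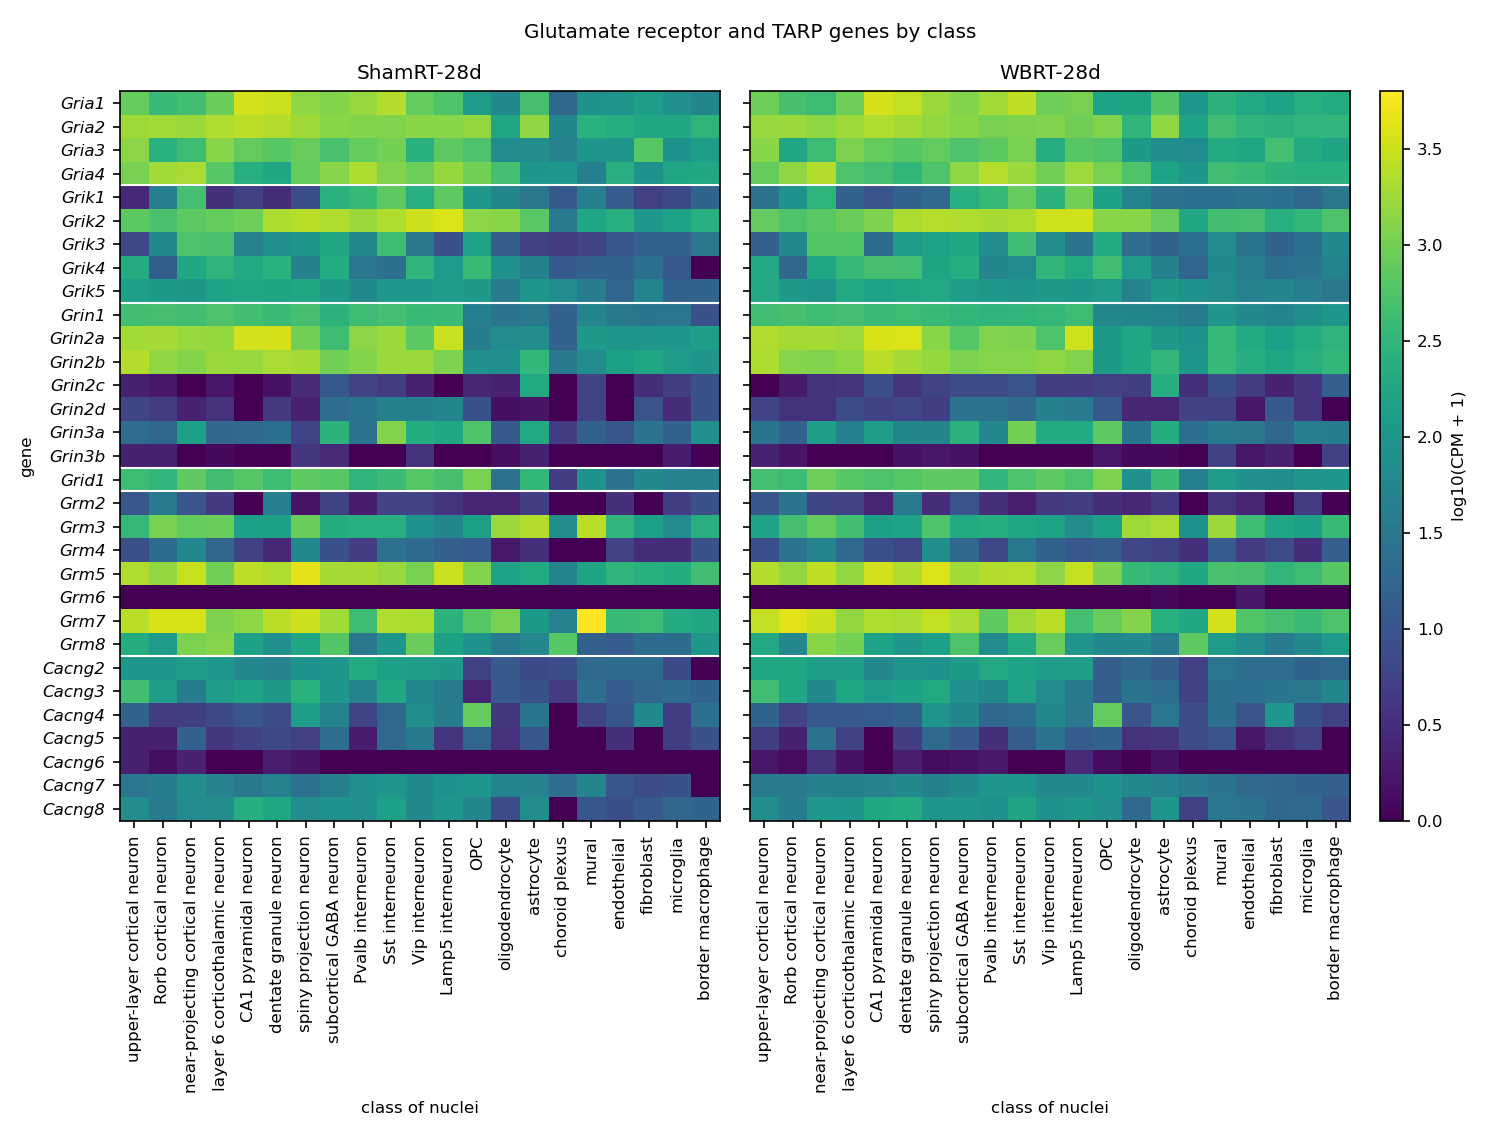
Level of the 31 genes (vertical, grouped by family with white lines) in the 21 classes (horizontal), ShamRT-28d on the left and WBRT-28d on the right, as colour for log10(CPM + 1). The bright cells fall in the same places on both sides for most genes: Grin2c stands out in astrocytes, Cacng4 in OPCs and Grm3 in mural cells, astrocytes and oligodendrocytes in both libraries.

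Highest and lowest classes named for a gene are those among the 21 classes compared, and smaller classes can lie above them. The rank correlation between the 21 class levels of ShamRT-28d and those of WBRT-28d had a median of 0.899 over the 27 genes with 100 UMIs in a class and ran from 0.576 for Grin2c to 0.992; the points share libraries and depth, so these are descriptions. The highest class was the same in both libraries for 18 of the 31 genes, and the intervals of the first and second class did not overlap for 13 of the 27 genes in ShamRT-28d and 14 in WBRT-28d.

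Among the AMPA subunits, Gria1, the subunit inserted during hippocampal potentiation, was highest in CA1 pyramidal neurons with 3432 CPM in ShamRT-28d and 3629.8 in WBRT-28d. Dentate granule neurons with 3136 and 2851 CPM and Sst interneurons with 2316 and 2715 CPM came next, and Rorb cortical neurons were the neuron class with the least in ShamRT-28d, at 367 CPM against 499 in WBRT-28d. Gria2 was spread more evenly, from 1219 CPM in Sst interneurons to 2631 in CA1 neurons in ShamRT-28d and from 945 CPM in Lamp5 interneurons to 2239.8 in CA1 neurons in WBRT-28d. Outside neurons it was as high as this in oligodendrocyte precursors (OPCs), with 1522 and 1207 CPM, and in astrocytes, with 1452 and 1418 CPM. The larger astrocyte cluster, of 582 and 1146 nuclei, had 1631 and 1616 CPM of it. The smaller one, of 90 and 206 nuclei with Myoc and Gfap among its top genes, had 342 and 387. Gria3 was highest in upper-layer cortical neurons with 1389 and 1316 CPM, followed by layer 6 corticothalamic neurons with 1327 and 1133. Gria4, which gives AMPA receptors fast kinetics, was highest in Pvalb interneurons, the fast-spiking class, with 2166 and 2411 CPM. Near-projecting cortical neurons had 2092 and 2330.3 CPM of it, a level whose interval overlapped that of Pvalb interneurons in both libraries, while CA1 neurons had 249.9 and 461 and dentate granule neurons 184 and 327. Per kb of span, Gria2 led the family in 20 classes in ShamRT-28d and in all 21 in WBRT-28d, and Gria3 led in fibroblasts of ShamRT-28d.

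**Figure D2:**
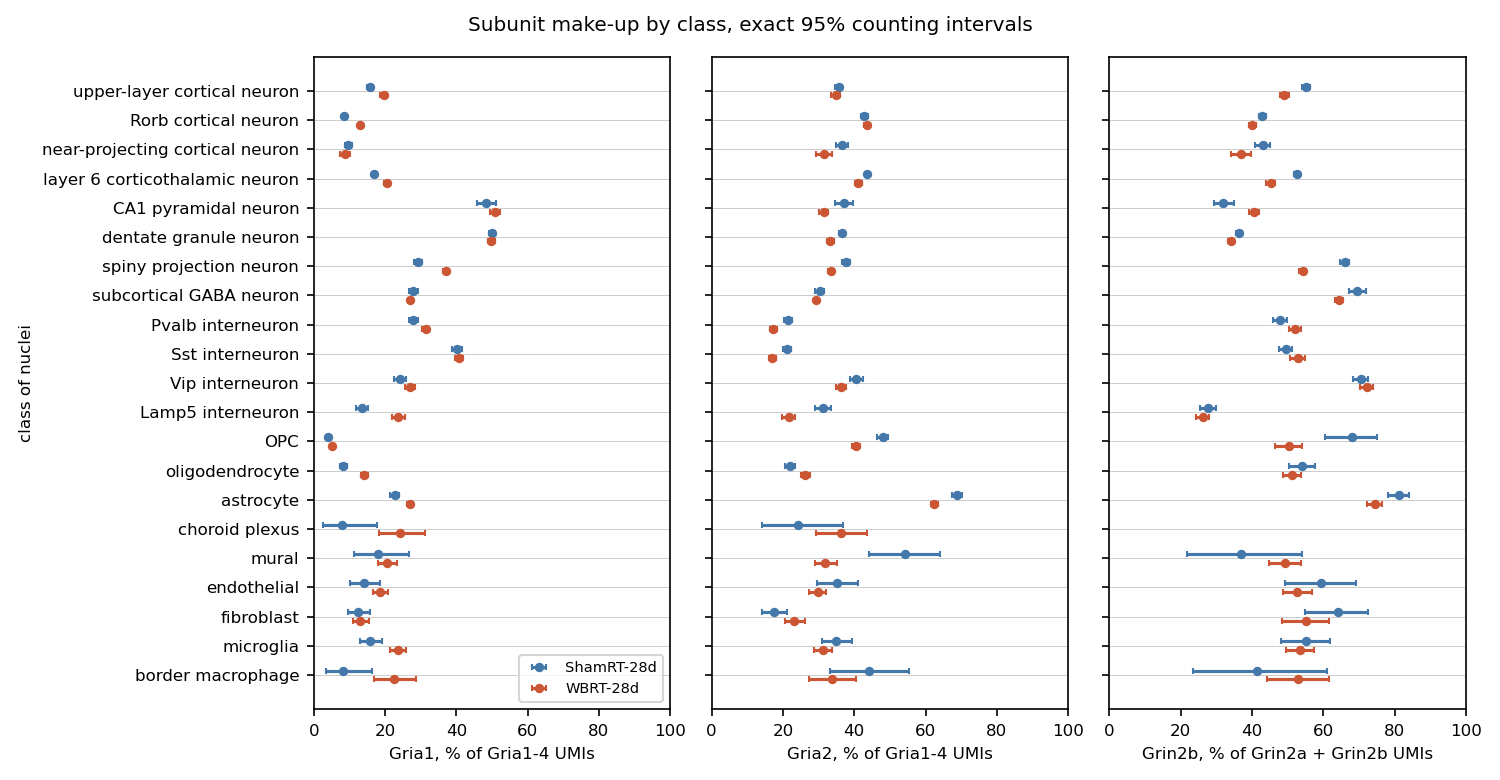
Share of UMIs in percent (horizontal, 0 to 100) held by Gria1 and by Gria2 of all AMPA subunits and by Grin2b of Grin2a and Grin2b in each class (vertical), with exact 95% intervals for counting error, ShamRT-28d in blue and WBRT-28d in orange-red. The Gria2 points of WBRT-28d lie to the left of those of ShamRT-28d in 17 of 21 classes and the Gria1 points to the right in 18 of 21.

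The make-up of the AMPA family differed between the libraries in one direction for most classes. Such a share does not depend on scaling to the class total, and since it still carries the gene's span it compares libraries, not subunits. The share held by Gria2 was lower in WBRT-28d in 17 of 21 classes and the share held by Gria1 was higher in 18 of 21, among the neurons in 11 and 9 of 12 classes, respectively. The intervals of the libraries did not overlap in 13 classes for Gria2, oligodendrocytes among them with the opposite direction, and in 12 for Gria1. The widest neuronal gap was in Lamp5 interneurons, the neurogliaform-rich class, where Gria2 held 31.2% (28.9 to 33.6) in ShamRT-28d and 21.6% (19.9 to 23.4) in WBRT-28d. Gria1 held 13.6% (11.9 to 15.4) in ShamRT-28d and 23.7% (22.0 to 25.6) in WBRT-28d of the AMPA UMIs of the same class. In OPCs, which receive synapses from axons, Gria2 held 48.0% (46.5 to 49.4) in ShamRT-28d and 40.5% (39.4 to 41.5) in WBRT-28d, and Gria4 held 30.6% and 35.6%. In astrocytes the Gria2 share was 68.9% and 62.5%, in CA1 neurons 37.1% and 31.4%, and in spiny projection neurons 37.7% and 33.5%. Oligodendrocytes went the other way, from 22.0% to 26.3%, in a class whose free neuronal RNA was 8.8% and 20.5% of the library level. The oligodendrocyte difference turned to -2.32 points where classes were taken from markers per nucleus. Free neuronal RNA was also higher in WBRT-28d in OPCs, at 12.2% and 19.7% of the library level, and in astrocytes, at 9.09% and 14.2%. Gria4 in astrocytes, not 2-fold above the level that free RNA predicts in both libraries, was 102 and 161 CPM. The part of free RNA in the shares of these classes was not tested. As a level, Gria2 was lower in WBRT-28d in 14 of the 20 classes with enough UMIs. Its ratios of WBRT-28d to ShamRT-28d in neurons ran from 0.718 in Lamp5 interneurons to 0.995 in subcortical GABA neurons, so that none was lower by the 1.5-fold used here to count a gene as past the fold. In Lamp5 interneurons it was 1317 CPM (95% interval 1203 to 1439) in ShamRT-28d and 945 CPM (95% interval 863 to 1034) in WBRT-28d. In OPCs its ratio was 0.793, in dentate granule neurons 0.831, in Pvalb interneurons 0.834 and in CA1 neurons 0.851. The CA1 ratio became 1.05 when nuclei with under 1000 genes were left out.

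Per kb of span, the kainate family was led by Grik2 in 12 classes in ShamRT-28d and 10 in WBRT-28d, by Grik5 in 8 and 10 and by Grik3 in 1 and 1, near-projecting neurons. The highest levels of Grik2 were in Lamp5 interneurons, with 3813 and 3346 CPM, and in Vip interneurons, with 3187 and 3397 CPM. Grik1 marked interneurons too: Sst interneurons had 728 and 802 CPM and Lamp5 interneurons 712 and 969, against 2.17 and 15.5 in dentate granule neurons. Grik3 was highest in near-projecting neurons with 550.3 and 598 CPM and in layer 6 neurons with 505 and 593. The high-affinity subunit Grik4 was highest in OPCs in ShamRT-28d at 358 CPM and in CA1 neurons in WBRT-28d at 475. Grik5 had its highest value in spiny projection neurons at 190.5 and 197 CPM.

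NMDA subunits separated forebrain neurons by their Grin2 genes. Grin2a was highest in dentate granule neurons with 3649 CPM in ShamRT-28d and 3807 in WBRT-28d, and CA1 neurons with 3498 and 3696 and Lamp5 interneurons with 3077 and 3402 followed. Grin2b, which gives slower currents, was highest in upper-layer neurons in ShamRT-28d at 2330.4 CPM (WBRT-28d 2114) and in CA1 neurons in WBRT-28d at 2525 CPM (ShamRT-28d 1645). Grin2c was an astrocyte gene in both libraries, at 199 CPM (95% interval 179 to 221) in ShamRT-28d and 235 CPM (95% interval 221 to 251) in WBRT-28d, while none of the other 20 classes compared was above 10.9 CPM in ShamRT-28d or 13.4 in WBRT-28d. It had at least 1 UMI in 31.5% and 42.2% of astrocytes and in 0.734% and 0.587% of microglia. The median UMIs of these classes were 2329.5 and 2653 for astrocytes and 1652 and 1869 for microglia, and with each nucleus thinned to 1000 UMIs the astrocyte shares were 15.9% and 19.8%. Grin2d was highest in interneurons, at 53.7 and 37.6 CPM in Lamp5 and 43.5 and 45.2 in Vip interneurons. Grin3a, which lowers the calcium permeability of the receptor, was highest in Sst interneurons with 1224 and 1002 CPM and next in OPCs with 569.9 and 708. Grin1 was flat over neurons, between 288 and 538 CPM in ShamRT-28d and between 301 and 490.1 in WBRT-28d.

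The balance of Grin2b against Grin2a differed between the libraries in both directions. Of the UMIs of these genes, Grin2b held 65.9% (64.6 to 67.3) in ShamRT-28d and 54.2% (53.1 to 55.2) in WBRT-28d in spiny projection neurons. In CA1 neurons it held 32.0% (29.2 to 34.8) in ShamRT-28d and 40.6% (39.1 to 42.1) in WBRT-28d, the opposite direction, which turned to a share lower by 7.99 percentage points in WBRT-28d when nuclei with under 1000 genes were left out. Layer 6 neurons went from 52.5% to 45.2%, subcortical GABA neurons from 69.5% to 64.4% and astrocytes from 81.1% to 74.4%. In astrocytes free neuronal RNA was 9.09% and 14.2% of the library level. Grin2a, unlike Grin2b, was not 2-fold above the level that free RNA predicts there in both libraries. In all, the Grin2b share was higher in WBRT-28d in 6 of the 20 classes with at least 20 UMIs of the pair in each library, and the intervals were apart in 11.

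Grid1 was highest in OPCs, with 1043 CPM (95% interval 989.6 to 1098) in ShamRT-28d and 1105 CPM (95% interval 1067 to 1144) in WBRT-28d. Near-projecting neurons with 751 and 928 CPM and spiny projection neurons with 723 and 755 CPM came next, and the interval of OPCs lay above that of near-projecting neurons in both libraries. Among neurons Pvalb interneurons had the least, 295 and 321 CPM. Its ratio of WBRT-28d to ShamRT-28d was above 1 in 17 of the 18 classes with 100 UMIs, CA1 neurons being the exception at 0.891. Of these ratios 5 were past the fold, 2 of 12 in neuron classes and 3 of 6 in other classes. The shares of all gene-class pairs past it were 11.0% and 13.7%, respectively. The classes that are not neurons also had more free neuronal RNA in WBRT-28d, and its part in the Grid1 ratios was not tested.

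Among metabotropic receptors, Grm5, the main group I receptor of the forebrain, was highest in spiny projection neurons with 4454 CPM in ShamRT-28d and 3977 in WBRT-28d. Grm7, a presynaptic group III receptor of low affinity, was spread over most neurons, with 3665 and 4216 CPM in Rorb neurons and 3716 and 3202 in near-projecting neurons. Its highest level in ShamRT-28d was in mural cells, pericytes and smooth muscle of the vessels, at 5943 CPM against 3510.3 in WBRT-28d. Grm8, another group III receptor, was highest in layer 6 neurons in ShamRT-28d (1267 CPM; WBRT-28d 1015) and in near-projecting neurons in WBRT-28d (1351 CPM; ShamRT-28d 1117), and the choroid plexus epithelium had 657 and 715 CPM. Grm2 had at most 41.2 and 34.8 CPM in dentate granule neurons, and Grm4 was highest in spiny projection neurons with 60.1 and 75.9 CPM. Grm3, the group II receptor of astrocytes, was highest in mural cells in ShamRT-28d, with 2543 CPM against 1686 in WBRT-28d. Astrocytes, which led in WBRT-28d, had 2329.8 and 2096 CPM, and oligodendrocytes followed them in both libraries, with 1669 and 1837.

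**Figure D3:**
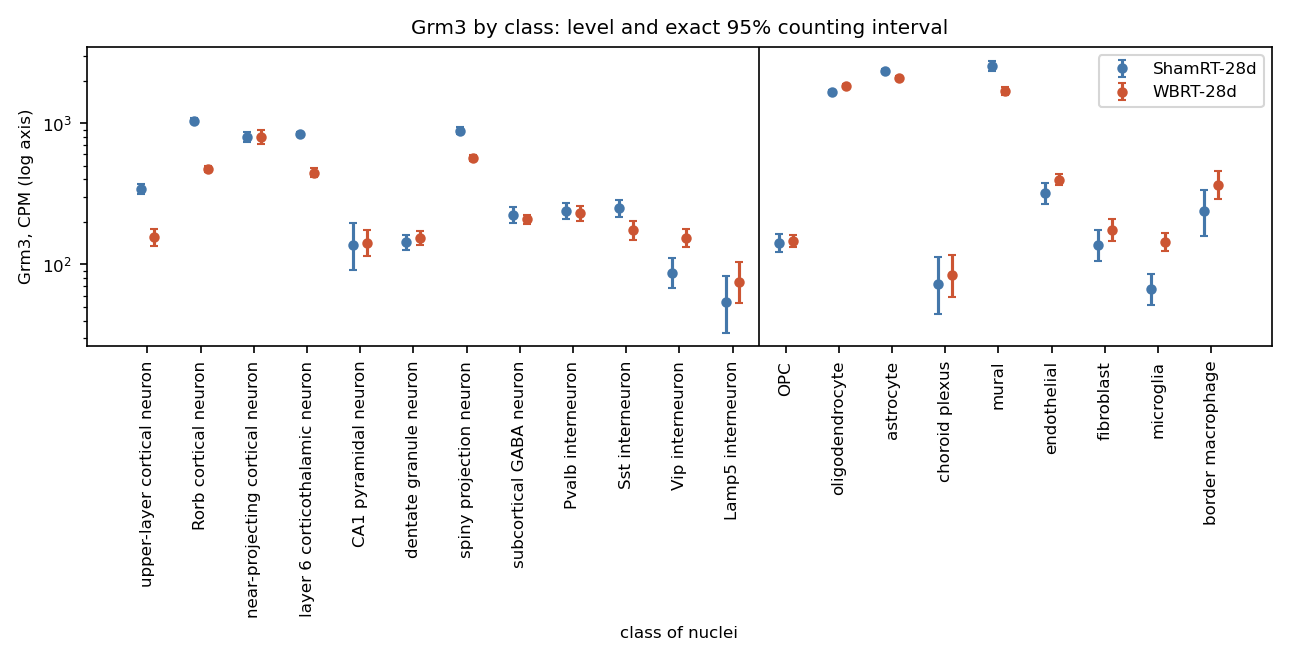
Grm3 level (vertical, CPM on a log axis) in each class (horizontal, neurons left of the line), ShamRT-28d in blue and WBRT-28d in orange-red, with exact 95% Poisson intervals. In Rorb, layer 6, upper-layer and spiny projection neurons the WBRT-28d point lies below the ShamRT-28d point, in near-projecting neurons both lie at about the same height (796 and 797 CPM), and in microglia the WBRT-28d point lies above.

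Grm3 was the gene of the set with the most classes lower past the fold, 5 of 19. Cortical excitatory neurons held 3 of the 5: Rorb, upper-layer and layer 6 neurons. Of all genes, 8.18%, 9.94% and 12.1% were past the fold in these classes in either direction. The others were spiny projection neurons, where 16.2% of all genes were past it, and mural cells, where 29.4% were. In Rorb cortical neurons, an intermediate-layer class, Grm3 was 1042 CPM (95% interval 1003 to 1082) in ShamRT-28d and 475 CPM (95% interval 452 to 498) in WBRT-28d, from 2737 and 1624 UMIs, a ratio of 0.456 (95% interval 0.428 to 0.485). Intervals printed after other ratios are of the same kind. In upper-layer neurons it was 343 CPM in ShamRT-28d and 155 in WBRT-28d (ratio 0.451, 0.386 to 0.527), and in spiny projection neurons 886 and 567 CPM (0.641, 0.597 to 0.687). Within the latter class it was 861 and 512 CPM in nuclei with more direct-pathway marker UMIs and 947 and 627 in nuclei with more indirect-pathway marker UMIs, a split that left 595 of 1132 nuclei near its border. The spiny neuron ratio was short of the fold, at 0.734, in nuclei thinned to 1000 UMIs. In layer 6 neurons it was 842 and 446 CPM (0.53, 0.491 to 0.572). Layer 6 neurons were a cluster of deep nuclei (median 8460 UMIs) with 382 nuclei in ShamRT-28d and 147 in WBRT-28d, and a cluster of shallow nuclei (median 1735 UMIs) with 220 and 286. Within them Grm3 had ratios of 0.541 and 0.574, so that the lower level was seen in each cluster alone. The largest neuron cluster, of 1667 and 1668 nuclei and named by no marker list, had 603 and 298 CPM (0.494, 0.458 to 0.533). The direction was not shared by all neurons: near-projecting neurons had 796 and 797 CPM, and Vip interneurons 87.0 and 153 CPM from 68 and 190 UMIs (ratio 1.76, 1.33 to 2.36). In Sst interneurons the ratio was 0.698, in astrocytes 0.90 and in oligodendrocytes 1.1. The share of Rorb nuclei with at least 1 Grm3 UMI was 88.9% and 85.0%, and with nuclei thinned to 1000 UMIs it was 54.5% and 35.0%. In microglia, at median depths of 1652 and 1869 UMIs against 7704 and 7159 in Rorb neurons, the share was 8.99% and 17.3%, or 5.4% and 10.3% thinned. Upper-layer neurons had thinned shares of 23.6% and 12.1%, the second close to that of microglia, and layer 6 neurons 44.5% and 27.2%. Since Grm2 had few UMIs, the group II share of the UMIs of Grm2 to Grm8 followed Grm3, from 16.8% to 7.94% in Rorb neurons, from 19.7% to 9.95% in layer 6 neurons and from 85.9% to 78.2% in astrocytes.

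The TARP genes mostly had their highest levels in different classes. Per kb of span, Cacng8 led the family in 15 classes in ShamRT-28d and 14 in WBRT-28d, Cacng7 in 3 and 2, Cacng4 in 2 and 2 and Cacng3 in 1 and 3. Cacng2, also called stargazin, was highest in Pvalb interneurons with 209.8 and 195 CPM, Cacng3 in upper-layer neurons with 448 and 426, and Cacng8, the hippocampal TARP, in CA1 neurons in ShamRT-28d with 231 CPM (WBRT-28d 185) and in dentate granule neurons in WBRT-28d with 212 (ShamRT-28d 172). Cacng4 was an OPC gene, at 787 CPM (95% interval 741 to 835) in ShamRT-28d and 765 CPM (95% interval 733 to 797) in WBRT-28d, against at most 135 CPM in the other 20 classes compared in ShamRT-28d, spiny projection neurons, and 104 in WBRT-28d, fibroblasts. It had a UMI in 75.8% and 77.7% of OPCs at median depths of 3001 and 3166 UMIs and in 0.734% and 1.17% of microglia, and thinning to 1000 UMIs gave 50.4% and 48.1% in OPCs. Cacng4 held 81.8% of the TARP UMIs of OPCs in ShamRT-28d and 78.5% in WBRT-28d. Cacng7, a TARP known for Gria2-poor receptors, was also highest in OPCs in ShamRT-28d, with 99.2 CPM there and 89.3 in WBRT-28d. Cacng5 stayed under 100 UMIs in each of the 21 classes, with its highest level among them in Vip interneurons at 33.3 CPM in ShamRT-28d and 27.5 in WBRT-28d.

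**Figure D4:**
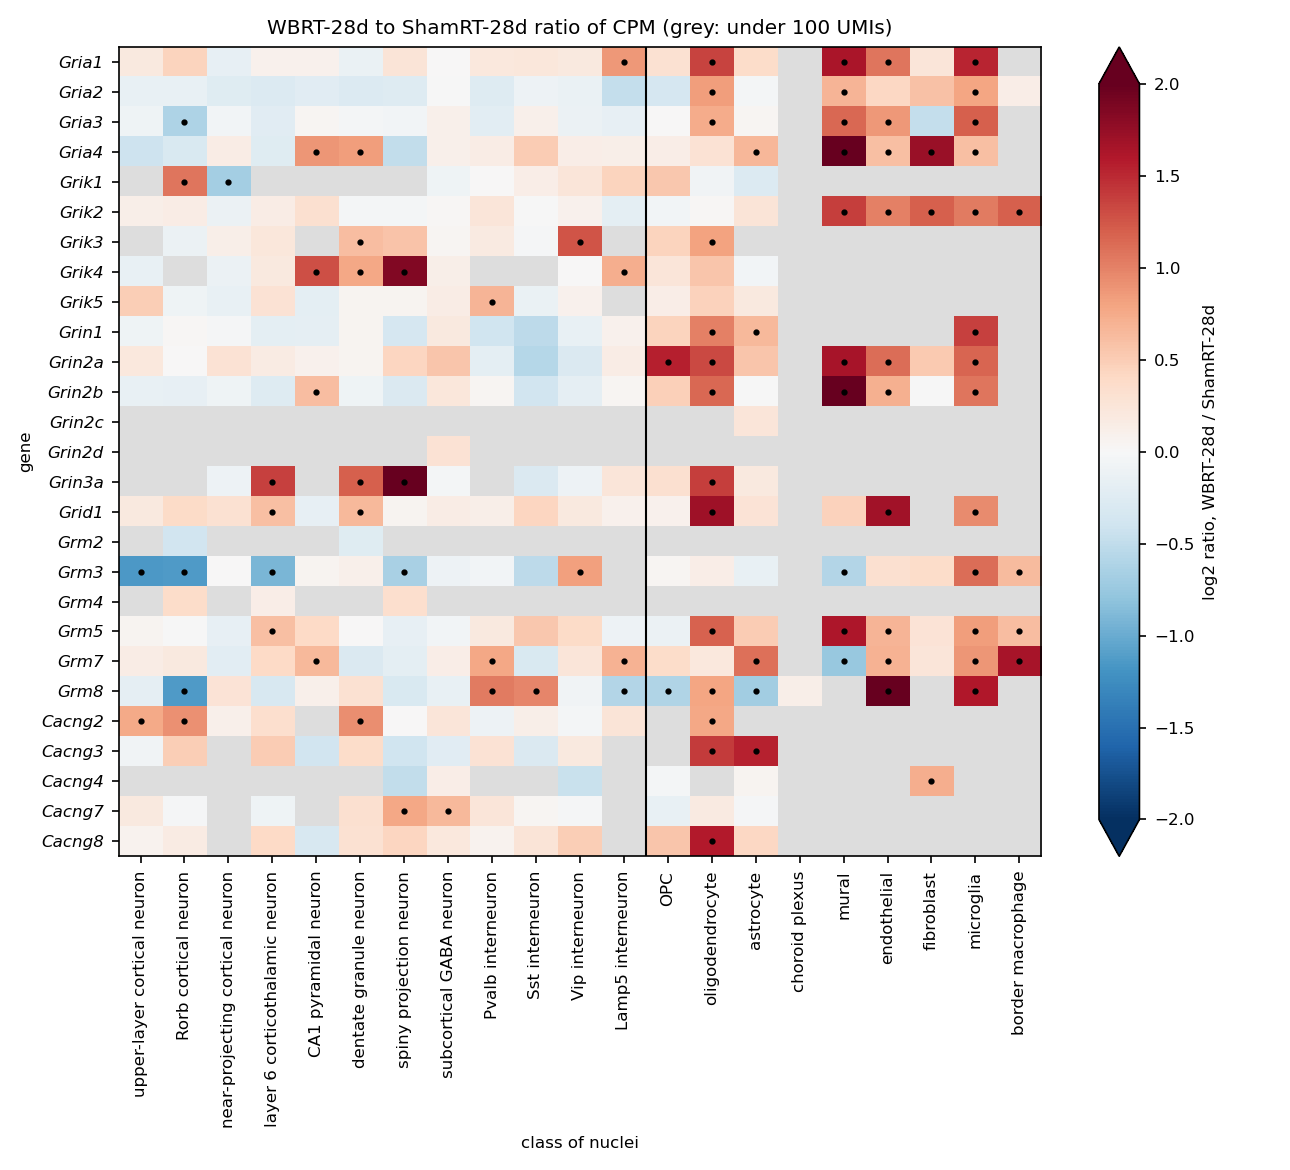
Ratio of WBRT-28d to ShamRT-28d CPM as a log2 value (colour from -2 to 2, red higher and blue lower in WBRT-28d) for each gene (vertical) and class (horizontal), grey where a pair has under 100 UMIs over both libraries and with a dot where the ratio is at least 1.5 or at most 1/1.5. Dots mark every coloured cell of microglia and most of those of endothelial cells, mural cells and oligodendrocytes, all in red except for Grm3 and Grm7 in mural cells. They are scattered over the neuron columns.

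The difference between libraries was then counted gene by gene and class by class. Of 366 pairs of a gene and a class that reached 100 UMIs over both libraries, 86 were at least 1.5-fold higher and 12 at least 1.5-fold lower in WBRT-28d, beside 12.1% of the 90175 such pairs over all genes. In neuron classes 29 were higher and 8 lower of 248, or 14.9%, beside a background of 11.0%. In the other classes 57 were higher and 4 lower of 118, or 51.7%, beside 13.7%. By family, neuronal pairs past the fold were 3 higher and 1 lower of 48 for AMPA subunits, 8 and 1 of 48 for kainate subunits, 4 and 0 of 45 for NMDA subunits, 2 and 0 of 12 for Grid1, 7 and 6 of 52 for metabotropic receptors and 5 and 0 of 43 for TARPs. The median log2 ratio of the members with 100 UMIs ran from -0.08 in near-projecting neurons to 0.15 in layer 6 neurons over the neuron classes, beside -0.02 to 0.08 for all genes in these classes, and from 0.12 in choroid plexus to 1.38 in mural cells over the others, beside -0.10 to 0.04. In neurons, 6 of the 8 lower pairs were metabotropic receptors, Grm3 in 4 classes and Grm8 in 2.

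Among cortical excitatory neurons, Rorb neurons had 2 genes higher and 3 lower of 22, beside a background of 8.18%. Grm8, a presynaptic autoreceptor, was 124 CPM in ShamRT-28d and 56.7 in WBRT-28d (ratio 0.455, 0.379 to 0.546), and Gria3 was 262 and 172 CPM (0.654, 0.585 to 0.731). Both turned to higher in WBRT-28d, with ratios of 4.87 and 1.34, where classes were taken from markers per nucleus and not from clusters. The genes higher past the fold were the kainate subunit Grik1, at 41.9 and 88.0 CPM (2.1, 1.68 to 2.64), and stargazin, Cacng2, at 99.7 and 188 CPM (1.88, 1.63 to 2.18). Gria1 was 367 and 499 CPM there, short of the fold. Upper-layer neurons had 1 gene higher and 1 lower of 19, beside 9.94%: Cacng2 at 101 and 172 CPM (1.7, 1.39 to 2.07), and Grm3. Short of the fold were Grik5 at 139 and 196 CPM and Gria4 at 1059 and 797, while Grin2a was 1895 and 2197. Near-projecting neurons had 0 higher and 1 lower of 19, beside 9.74%, Grik1 at 471 and 294 CPM (0.623, 0.50 to 0.772). Their Grin2a, Grm8, Grid1 and Grm7 had ratios of 1.23, 1.21, 1.24 and 0.862.

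Layer 6 neurons had 3 genes higher and 1 lower, Grm3, of 22, beside 12.1%, in a class where deep nuclei prevailed in ShamRT-28d and shallow nuclei in WBRT-28d. Grin3a was 16.7 CPM in ShamRT-28d and 43.4 in WBRT-28d (ratio 2.59, 1.86 to 3.61), Grm5 992 and 1511 (1.52, 1.45 to 1.6) and Grid1 428 and 647 (1.51, 1.4 to 1.63). Within the deep and the shallow cluster, Grm5 had ratios of 1.32 and 1.51, Grid1 of 1.39 and 1.98 and Gria1 of 0.949 and 1.53, so that Grm5 and Grid1 were higher in WBRT-28d in each and Gria1 in the shallow one alone. Grm8, at 1267 and 1015 CPM, and Gria2, at 2198 and 1818, were short of the fold.

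In the hippocampus, dentate granule neurons had 6 genes higher and 0 lower of 22, beside 10.1%. Grin3a was 23.3 CPM in ShamRT-28d and 53.6 in WBRT-28d (ratio 2.3, 1.59 to 3.38), Gria4 was 184 and 327 CPM (1.78, 1.56 to 2.04), and Grik4 was 268 and 459 (1.71, 1.53 to 1.92). For Gria4 this class was the lowest neuron class in ShamRT-28d. Genes for which it was among the highest classes differed less or the other way: Gria2 was 2296 and 1909 CPM, Gria1 3136 and 2851 and Grin2a 3649 and 3807. Grm7, higher in several other classes, was 2553 and 2099.8. CA1 pyramidal neurons had 4 higher and 0 lower of 17, beside 26.1%, the highest background among the neuron classes. The class held 212117 UMIs in 98 nuclei of ShamRT-28d (median 1867) and 674151 in 166 of WBRT-28d (median 2195.5), so that its depth differed between the libraries. Its Gria2 ratio and Grin2b share changed direction when nuclei with under 1000 genes were left out, as given above. Grik4 was 193 and 475 CPM (2.46, 1.77 to 3.49), Gria4 249.9 and 461 (1.85, 1.38 to 2.52) and Grm7 1414 and 2210.2 (1.56, 1.38 to 1.78). Grik4 also took a larger part of the kainate UMIs of CA1 neurons, from 14.3% to 26.1%.

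Spiny projection neurons, the main neurons of the striatum, had 3 genes higher and 1 lower of 23, beside 16.2%. Grin3a stood at 8 UMIs in 351 nuclei of ShamRT-28d and 153 in 781 of WBRT-28d, or 4.81 and 51.8 CPM (ratio 10.8, 5.34 to 25.4). It was seen in 2.28% and 10.9% of these nuclei (median depths 2647 and 2433 UMIs) and in 2.39% and 5.87% of microglia, or, thinned to 1000 UMIs, in 0.453% and 4.33% against 1.33% and 3.36%. The ShamRT-28d share was no higher than that of microglia, and the ratio was 1.98 where classes were taken from markers per nucleus. Grik4 was 45.1 and 162 CPM (3.59, 2.81 to 4.65), and the third was the TARP Cacng7, at 26.4 and 45.4. Gria4 and Cacng4 had ratios of 0.708 and 0.715, and Grin2a 1.35. Subcortical GABA neurons had 1 higher and 0 lower of 24, beside 9.05%, Cacng7 at 40.8 and 64.2 CPM. Their Grin2a, Grin2b and Grm8 had ratios of 1.47, 1.17 and 0.903.

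Among interneurons, Lamp5 cells had 3 genes higher and 1 lower of 16, beside 9.95%. Gria1 was 572 CPM (95% interval 498 to 655) in ShamRT-28d and 1040.3 CPM (95% interval 953 to 1133) in WBRT-28d (ratio 1.82, 1.55 to 2.14), and Grm7 was 282 and 459 CPM (1.63, 1.29 to 2.07). Grik1 and Grik2 moved apart without passing the fold, with ratios of 1.36 and 0.878. Pvalb interneurons had 3 higher and 0 lower of 20, beside 9.13%: Grm7 at 414 and 711 CPM (1.72, 1.53 to 1.93), Grm8 at 32.7 and 67.0 and Grik5 at 65.3 and 104. The metabotropic pair turned to ratios of 0.92 and 0.397 where classes were taken from markers per nucleus. Grin1, the obligatory NMDA subunit, was 397 and 301 CPM in this class and Grin2a 1370.5 and 1191. Sst interneurons had 1 higher and 0 lower of 21, beside 12.1%. That gene was Grm8 at 101 and 199 CPM (1.97, 1.51 to 2.59), and Grm5 at 1662 and 2418 and Gria4 at 1209.6 and 1719.5 were just short. Sst cells also had the lowest ratios among the classes with 100 UMIs for Grin2a (0.671, 0.619 to 0.728), Grin1 (0.696, 0.594 to 0.814) and Grin2b (0.771, 0.712 to 0.834). Vip interneurons had 2 higher and 0 lower of 23, beside 8.05%, Grik3 at 30.7 and 73.5 CPM (2.39, 1.51 to 3.93) and Grm3. Grm5, Grin2a, Grin2b and Gria2 had ratios of 1.3, 0.815, 0.879 and 0.913 there.

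In the classes that are not neurons, receptor levels were set beside the level of free neuronal RNA. For each gene and class, the level that free RNA predicts was computed from 8 neuronal genes, among them Snap25, Syt1, Meg3, Snhg11, Rbfox3, Celf4 and Stmn2, whose summed level in the class was divided by that in the whole library and multiplied by the library level of the receptor gene. A gene was at least 2-fold above that prediction in both libraries in 49 of the pairs of the 31 genes and 9 classes: 18 genes in OPCs, 14 in astrocytes, 8 in oligodendrocytes, 3 in choroid plexus, 3 in fibroblasts, 2 in mural cells, 1 in endothelial cells and 0 in microglia and border macrophages. Of the pairs with at least 100 UMIs, the 41 above the prediction had a median ratio of 1.10 between the libraries, with 1 higher and 2 lower past the fold. The other 77 had a median ratio of 1.83, with 56 higher and 2 lower. By class, the median ratio of these other genes and the ratio of the free RNA level itself were 2.09 and 2.22 in microglia, 2.25 and 2.33 in oligodendrocytes, 1.83 and 1.74 in endothelial cells, 1.45 and 1.57 in astrocytes, 1.3 and 1.62 in OPCs and 1.28 and 1.5 in fibroblasts. They were farther apart in mural cells, at 3.07 and 2.04, and in border macrophages, at 1.55 and 2.48. In choroid plexus free RNA differed 2.83-fold, and no gene short of 2-fold above the prediction had 100 UMIs. The part of free RNA in single differences was not tested.

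**Figure D5:**
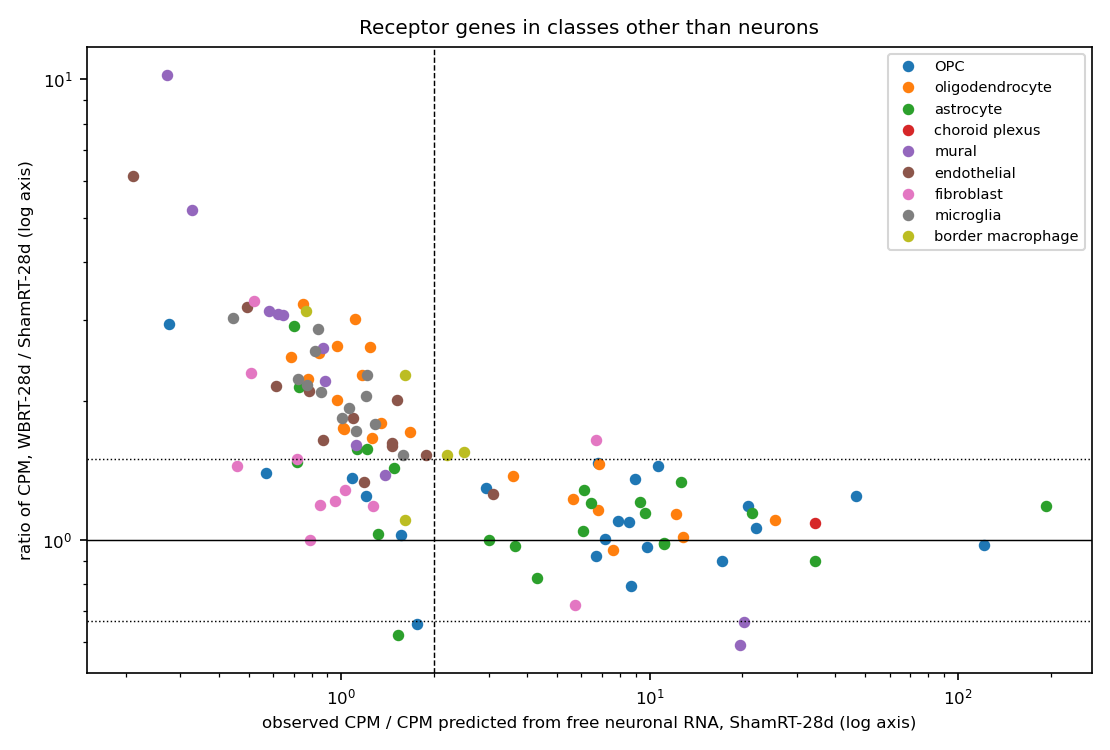
Each point is 1 of the 118 pairs of a receptor gene and a class other than neurons with at least 100 UMIs, coloured by class, by the ratio of its ShamRT-28d level to the level predicted from free neuronal RNA (horizontal, log axis, dashed line at 2) and the ratio of WBRT-28d to ShamRT-28d (vertical, log axis, dotted lines at 1.5 and 1/1.5). Points right of the dashed line lie mostly between the dotted lines and points left of it mostly above them. The ShamRT-28d count enters both axes, so a slope between them is in part built in.

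OPCs had 1 gene higher and 1 lower of 21, beside 8.21%. Cacng4 stood 122-fold and 54.4-fold above its free RNA prediction in ShamRT-28d and WBRT-28d, Grin3a 46.7-fold and 23.7-fold and Grid1 22.1-fold and 11.6-fold. The 18 genes above free RNA in OPCs came from each family of the set. Grin2a, which was not among them, was 39.1 and 115 CPM (ratio 2.95, 2.2 to 4.0). Grm8 was 88.3 and 57.9 CPM (0.656, 0.516 to 0.835), while Grm7 and Grm5 had ratios of 1.3 and 0.922. Astrocytes had 4 higher and 1 lower of 22, beside 11.0%. Grin2c was 193-fold and 75.4-fold above the prediction, Grm3 34.4-fold and 23.4-fold and Gria2 11.2-fold and 8.4-fold, and their ratios between libraries were 1.18, 0.90 and 0.977. The astrocyte genes past the fold, none of them 2-fold above free RNA in both libraries, included Grm7 at 118 and 254 CPM, Cacng3 at 7.85 and 22.9, Gria4 at 102 and 161 and, lower, Grm8 at 57.2 and 35.5 (0.62, 0.477 to 0.808), which turned to 1.30 with doublets kept.

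Oligodendrocytes had 14 genes higher and 0 lower of 22, beside 14.1%, and all 14 were short of 2-fold above free RNA in at least 1 library. Among them were Gria1 at 63.7 and 162 CPM, Grin2a at 69.8 and 174 and Grid1 at 25.6 and 83.1. Of the 8 genes that oligodendrocytes held above free RNA, 0 were past the fold, and their median ratio was 1.15. With free RNA read from Slc17a7 and Snap25, the number of genes above it was 4. Grm3 was 25.5-fold and 14.3-fold above the prediction from the 8 neuronal genes with a ratio of 1.1, and Grik2 at 1311 and 1327 CPM had a ratio of 1.01. Grik4 differed more, with ratios of 1.57 in the larger and 1.43 in the smaller oligodendrocyte cluster. Microglia had 13 higher and 0 lower of 13, beside 16.3%, and none of the genes was above free RNA 2-fold in both libraries. Gria1 was 83.8 and 240.0 CPM there, Gria3 88.9 and 203 and Grm8 21.2 and 64.1. Border macrophages had 4 higher and 0 lower of 5, beside 30.3%, with Grm7 at 174 and 545 CPM, Grik2 at 237 and 540.4 and Grm5 at 426 and 652. The Grm5 ratio turned to 0.853 with doublets kept and 0.681 with doublets set by the automatic threshold.

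The remaining classes were vascular and barrier cells. Endothelial cells had 10 genes higher and 0 lower of 12, beside 15.5%, among them Grm8 at 11.8 and 72.9 CPM, Grik2 at 242 and 485 and Grid1 at 26.1 and 83.4. Fibroblasts had 3 higher and 0 lower of 11, beside 11.0%, with Gria4 at 86.3 and 285 CPM and Grik2 at 105 and 242. Their Gria3, 5.72-fold and 3.77-fold above free RNA, was 649 and 467 CPM (ratio 0.72, 0.617 to 0.842). Mural cells had 8 higher and 2 lower of 11, beside 29.4%. The genes above free RNA were the lower ones, Grm7 (19.7-fold and 5.19-fold above; ratio 0.591, 0.552 to 0.633) and Grm3 (20.2-fold and 7.78-fold; 0.663, 0.598 to 0.736). The higher ones included Gria4 at 42.6 and 434 CPM, Grin2b at 66.3 and 344 and Grm5 at 166 and 509, in a class of 121 and 297 nuclei whose free RNA was 16.9% and 34.5% of the library level. Choroid plexus had 0 past the fold of 1, beside 13.7%. That gene was Grm8, 34.3-fold and 18.9-fold above free RNA, with a ratio of 1.09, 0.903 to 1.32.

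Of the wider glutamate pathway, a list of 81 genes outside the set was read in the same way, of which 80 were found under the listed symbol. Over all classes 144 pairs were higher and 29 lower of 919, beside the 12.1% given above for all genes. Scaffolds and kinases of the postsynaptic density had 74 higher and 4 lower of 343, AMPA receptor partners 21 and 8 of 202, glutamate transport and synthesis 17 and 4 of 126, kainate and delta receptor partners 17 and 8 of 74, metabotropic signalling 15 and 3 of 149, and the D-serine and glycine co-agonist genes 0 and 2 of 25. In each list but the last, pairs past the fold were mostly higher in WBRT-28d. These counts pool neurons with classes whose free neuronal RNA was higher in WBRT-28d. Oligodendrocytes had 25 higher and 1 lower of 57, beside 14.1% of all genes. Microglia had 15 and 0 of 35, beside 16.3%, and mural cells 11 and 1 of 25, beside 29.4%. The neuron class with the most was spiny projection neurons, with 12 and 4 of 55, beside 16.2%. The part of free RNA in these counts was not tested. Homer1, a scaffold of group I receptors, was higher in Rorb neurons, from 411 to 698 CPM (ratio 1.7, 1.58 to 1.83), and lower in spiny projection neurons, from 720.4 to 402 (0.558, 0.514 to 0.605), and in CA1 neurons, from 514 to 286 (0.557, 0.438 to 0.711). C1ql3, a secreted partner of kainate receptors at synapses, went from 51.8 to 23.7 CPM in Rorb neurons (0.457, 0.343 to 0.606) and from 148 to 58.7 in upper-layer neurons (0.397, 0.307 to 0.508). The kainate receptor auxiliary Neto2 went from 273 to 125 CPM in spiny projection neurons (0.457, 0.397 to 0.526) and Neto1 from 297 to 195 in Vip interneurons (0.659, 0.548 to 0.792). Neto1 also went from 277 to 183 in dentate granule neurons (0.66, 0.573 to 0.759). Neurexin 3, Nrxn3, a presynaptic partner of cerebellins, went from 10532 to 5769 CPM in CA1 neurons (0.548, 0.52 to 0.577) and from 2833 to 1778 in dentate granule neurons (0.627, 0.60 to 0.656). These were lower pairs of a list whose higher pairs numbered 17. Shisa6, an AMPA receptor auxiliary, went from 71.7 to 201 CPM in layer 6 neurons (2.8, 2.4 to 3.27), and Shisa9 from 78.8 to 235 in Sst interneurons (2.99, 2.25 to 4.02). The kinase Camk2d went from 27.6 to 137 CPM in spiny projection neurons (4.98, 3.66 to 6.9), and the astrocyte transporter Slc1a2, which should be low in neurons, from 51.7 to 147 there (2.84, 2.25 to 3.62) and from 77.7 to 213 in oligodendrocytes (2.74, 2.42 to 3.09). In astrocytes the glutamine transporter Slc38a1 went from 228 to 92.5 CPM (0.406, 0.352 to 0.469) and Slc38a3 from 184 to 123 (0.668, 0.58 to 0.77), while the scaffold Dlg2 went from 421 to 644 (1.53, 1.41 to 1.66) in a class whose free neuronal RNA was 9.09% and 14.2% of the library level.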

How the data were processed

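Nuclei of frozen whole mouse brains were profiled in 2 droplet libraries, 1 per condition, each a pool of 2 mice. The authors made the deposited files with Cell Ranger (5.0.0 per the file headers) on an mm10 reference that counts unspliced transcripts. The deposited values are raw UMI counts per gene and barcode with no normalization, and Seurat 3.0 and R 3.5.3 are listed in the processing notes of the submitters. Introns are counted, so a gene's count grows with its span.

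From these counts, barcodes with under 500 genes or over 5% mitochondrial UMIs were removed, as were the barcodes with the highest Scrublet scores up to an expected doublet rate of 0.8% per 1000 barcodes (1013 and 2004 barcodes). The receptor and TARP genes were left out of the 2000 variable genes. Nuclei of both libraries were clustered together (scanpy 1.11.5, 30 components, 20 neighbours, Louvain resolution 0.8), and neurons were clustered again. A cluster was named where a marker list led with a score of at least 0.6 and the next was under 0.55, with at least 3 markers each in at least 5% of nuclei, limits set after the clusters were seen. Subcortical GABA neurons were near that limit (score 0.603). UMIs were summed per class and library and divided by the class total (CPM), with exact 95% Poisson intervals. Ratios of WBRT-28d to ShamRT-28d carry exact conditional binomial intervals and shares carry Clopper-Pearson intervals, and all of them cover counting error only. No test between conditions was run. A gene counted as past the fold with at least 100 UMIs over both libraries in a class and a ratio of at least 1.5 or at most 1/1.5, and the share of all genes past it is given as background. Gene spans were taken from GENCODE M21 on GRCm38. Values are named, per class, for the genes whose interval bound nearest to 1 lay farthest from 1 (at most 3 per direction), for the highest class of each gene and, for pathway genes, for examples among those chosen the same way (at most 2 per direction). The genes, the pathway lists and the marker lists were chosen with earlier results of these data known. Some genes that were part of the design are not reported here, and counts, sums and shares were computed without those of the receptor families.

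Alternatives were a marker gate per nucleus in place of clusters, doublets kept, at least 1000 genes, resolution 1.6, nuclei thinned to 1000 UMIs, scaling by the median ratio, UMI minimums of 20 or none and a lower fold. Scrublet's automatic threshold and the split of layer 6 neurons by cluster were added after the data were seen. The ratio and interval code was tested on simulated counts.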

Additional observations from a re-analysis of the deposited data

How the results depend on the processing

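With 1 library per condition, no library could be left out, and how far mice of a condition differ is unknown. No paired analysis was possible because each condition has 1 library. The 98 pairs of a receptor gene and a class past the fold were 77 to 117 with doublets kept or set by the automatic threshold, with at least 1000 genes, at resolution 1.6, with a marker gate per nucleus or with scaling by the median ratio, which moved the median of all genes by over 0.1 (log2) in border macrophages alone. They were 63 with nuclei thinned to 1000 UMIs, 177 with a minimum of 20 UMIs, 234 with no minimum and 156 at the lower fold of 5/4. In neuron classes the 37 pairs were 26 under the marker gate, 21 thinned, 62 and 90 with the lower minimums and 75 at the lower fold, and the 173 pathway pairs were 96 thinned, 374 and 521 with the lower minimums and 386 at the lower fold. The gate gave 14 of the 21 classes and thinning fewer pairs with 100 UMIs, so that neuronal ratios above 1 numbered 76 of 135 under the gate and 83 of 172 thinned, against 144 of 248, and the Gria2 share of AMPA UMIs was lower in 10 of 14 classes under the gate, against 17 of 21. Genes in glia above free RNA were 37 with free RNA read from Slc17a7 and Snap25, against 49. By class they were 4 against 8 in oligodendrocytes, 10 against 14 in astrocytes, 15 against 18 in OPCs and 0 against 1 in endothelial cells. Grm3 kept its direction in Rorb (ratios 0.334 to 0.525), layer 6 (0.421 to 0.574), upper-layer (0.447 to 0.553) and spiny projection neurons (0.524 to 0.734) under the alternatives run.

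Of 656 recomputed ratios of the named genes 512 stayed within the counting interval, 136 moved and 8 turned; of 251 recomputed shares these numbers were 212, 34 and 5, and the cause was not tested. Under the marker gate, ratios turned to 0.92 for Grm7 and 0.397 for Grm8 in Pvalb interneurons, to 4.87 for Grm8 and 1.34 for Gria3 in Rorb neurons, and share differences to -0.0315 points for Gria1 and -6.28 points for Grin2b in Pvalb interneurons and -2.32 points for Gria2 in oligodendrocytes. With at least 1000 genes, share differences turned to -7.99 points for Grin2b in CA1 neurons and -0.267 points for group II in Vip interneurons. Thinned, the ratio turned to 0.903 for Grm8 in Pvalb interneurons. With doublets kept, ratios turned to 1.30 for Grm8 in astrocytes and 0.853 for Grm5 in border macrophages, the latter 0.681 under the automatic threshold.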

Other observations

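Some nuclei lay outside the classes compared, and their receptor levels are given as values. Neurons of the islands of Calleja, named from Drd3 and its partner markers, numbered 13 nuclei in ShamRT-28d and 201 in WBRT-28d and carried 769 and 654 CPM of Grin3a, far above the spiny projection neurons. Their Gria2 stood at 3122 and 2347 CPM. Immature neurons, with 126 nuclei in ShamRT-28d and 11 in WBRT-28d, carried Gria2 at 1208 CPM, Grik2 at 1106 and Cacng4 at 182 in ShamRT-28d, while their Grin1 stood at 66.7 CPM. Thalamic neurons, 91 and 25 nuclei, had 33.6 and 86.7 CPM of Grin2c from 23 and 13 UMIs. Other subcortical glutamatergic neurons, 50 and 16 nuclei, had 2883 and 398 CPM of Grm8 from 646 and 17 UMIs.

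The largest unnamed neuron cluster, 1667 and 1668 nuclei of shallow depth, and a smaller unnamed cluster of deep nuclei, 258 and 110, both had less Grm3 in WBRT-28d, at ratios of 0.494, 0.458 to 0.533 and 0.502, 0.44 to 0.571. In the larger of them Cacng2 had a ratio of 1.41, Grik1 of 2.1 and Gria1 of 1.23, and in the smaller Cacng2 had 1.87 and Gria1 1.11. Other unnamed neuron clusters were almost all from 1 library, with 4 and 220, 5 and 189, 133 and 2, and 97 and 0 nuclei in ShamRT-28d and WBRT-28d.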
